A study of Mus musculus with 9 samples.

Results

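The nitric oxide synthases and the enzymes that supply or compete for their substrate were described in RNA sequencing of the mouse aortic arch. The set holds 10 genes, chosen by symbol from the 21989 rows of the deposited table. They are the synthases Nos1, Nos2 and Nos3, the cofactor enzyme Gch1, and the arginases Arg1 and Arg2. The others are the inhibitor-degrading enzymes Ddah1 and Ddah2 and the arginine-forming enzymes Ass1 and Asl. All 10 were found. There were 9 libraries, 3 in each group. The control group was C57BL/6J, fed a standard diet. Model libraries were from ApoE-/- mice on a high-fat diet. Those of the high dose group were from ApoE-/- mice on the same diet that received 5.12 g/kg/day of ZCL by gavage. The diet time was 15 weeks for all 9 libraries. ZCL is the name in the labels, in a series that concerns the plant Ziziphora clinopodioides Lam. Both ApoE-/- groups share genotype and diet, so control differs from them in both at once. The deletion is in the germ line rather than in one cell type, the age of the mice is not in the sources used here, and whether each library is a different animal is not in the labels. P-values therefore reflect the spread between libraries alone, and that spread may be technical.

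Nitric oxide is formed from arginine and oxygen by the nitric oxide synthases, which need tetrahydrobiopterin as a cofactor and release citrulline. The endothelial enzyme (Nos3) makes the nitric oxide that relaxes vascular smooth muscle through soluble guanylate cyclase and cyclic GMP, the inducible enzyme (Nos2) is made mainly by activated macrophages, and the neuronal enzyme (Nos1) by neurons and skeletal muscle. Arginases compete for the same arginine, methylated arginines inhibit the synthases, and Ass1 and Asl turn citrulline back into arginine.

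Expression is given as FPKM, fragments scaled to the length of the gene and the fragment total of the library, a scale per length on which genes can be set side by side. Relative depth, read from the steps between low FPKM values, lay between 56.3% of the deepest library in control 2 and 100% in model 1; absolute depth is unknown. Apoe stood at 339.9 to 1006 FPKM in control and at 18.9 to 93.7 in the 6 ApoE-/- libraries. The arch libraries also held RNA of neighbouring tissues in unequal amounts. Summed over 10 cardiac markers, control 1 and 2 and high dose 2 and 3 held 8298 to 30371 FPKM and the other 5 libraries 31.5 to 94.0. Summed over 8 airway markers, control 2 held 9651 and high dose 2 30966 FPKM, against 15.1 to 99.4 elsewhere. Smooth muscle markers (8 of 8 in the table) summed to 488 to 4483 FPKM and endothelial markers (12 of 12) to 444 to 874, so both cell types of the vessel wall were present in every library.

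The filter, 1 FPKM or more in 3 or more libraries, left 8 of the 10 genes for testing. Nos1 and Ddah2 did not pass it. By limma, the number of the 8 that differed at an adjusted p under 0.05 was 0 in model against control, 0 in high dose against model and 0 in high dose against control, where 0% of all 12895 genes tested passed in each. At an unadjusted p under 0.05 the first comparison held 821 genes (6.37%, of which 3.62% higher and 2.75% lower in model), the second 1729 (13.4%, 6.86% higher and 6.55% lower in high dose) and the third 701 (5.44%, 2.64% higher and 2.80% lower in high dose). Of the 8 members, 1 had such a p in the first, 1 in the second and 0 in the third. In the first and the second it was Nos2.

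**Figure D1:**
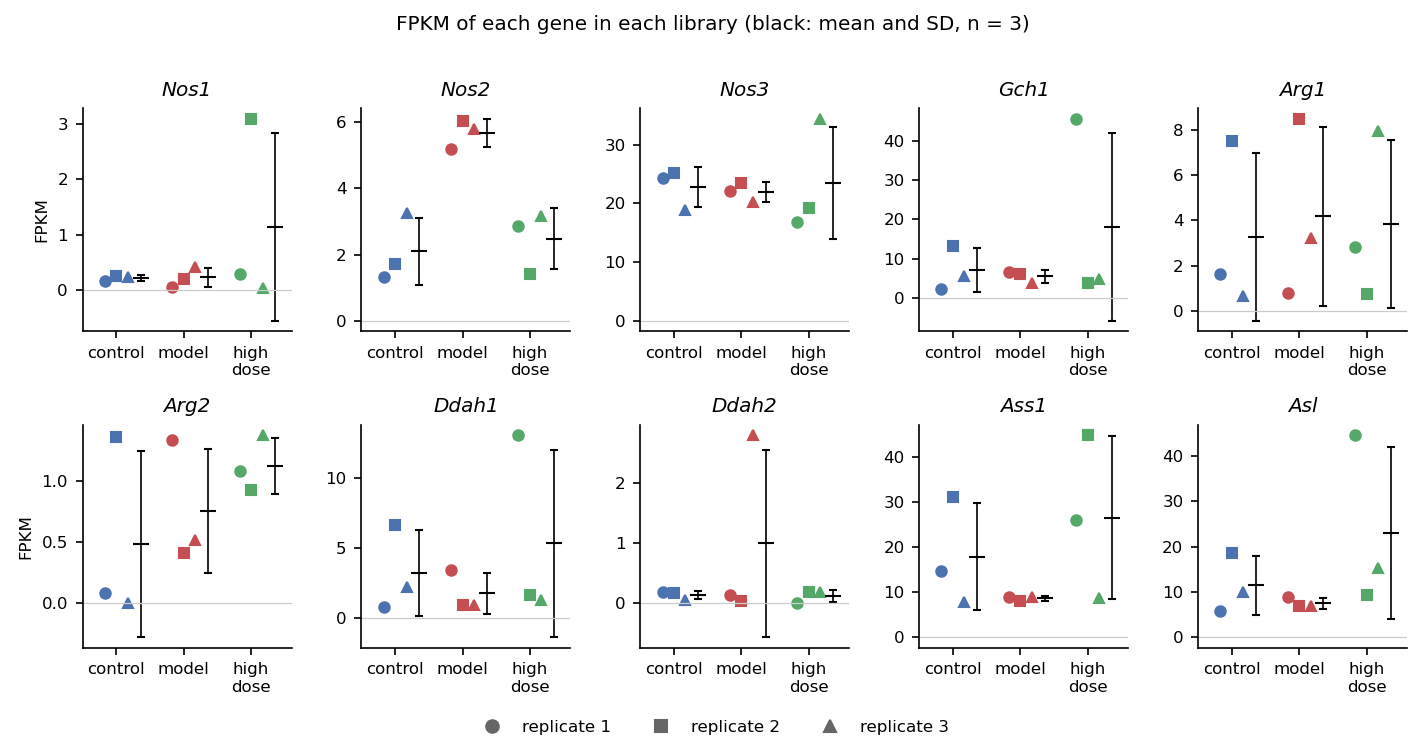
Each panel plots the FPKM of 1 gene on a linear axis that differs between panels, with 1 point per library (replicates 1, 2 and 3 as circle, square and triangle) and the mean with its SD (n = 3) in black. The 3 model libraries lie above the other 6 for Nos2, while single libraries stand apart for Nos1 (high dose 2), Gch1, Ddah1 and Asl (high dose 1) and Ddah2 (model 3).

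Nos3 had the highest median of the 10 genes over the 9 libraries, 22.0 FPKM, and similar means in the 3 groups. It was followed by Asl (9.28), Ass1 (9.03), Gch1 (5.68), Nos2 (3.16), Arg1 (2.82), Ddah1 (1.67), Arg2 (0.925), Nos1 (0.231) and Ddah2 (0.167), and the ranges of neighbours in this order overlapped. It lies on chromosome 5 (24364810 to 24384474, plus strand, GRCm38). Nos3 measured 24.3, 25.3 and 18.9 FPKM in control 1, 2 and 3, 22.0, 23.5 and 20.2 in model, and 16.9, 19.1 and 34.4 in high dose. The groups overlapped in each comparison, and high dose held both the lowest and the highest library. Mean levels were 22.8 ± 3.44, 21.9 ± 1.66 and 23.5 ± 9.55 FPKM (SD, n = 3). The log2 difference on the log2(FPKM + 1) scale was -0.047 between model and control, with a 95% interval of -0.67 to 0.58, and 0.032 between high dose and model, with an interval of -0.59 to 0.66 (limma adjusted p = 0.990 and 0.968). These intervals still contain changes of a log2 of 0.5 in either direction. Nos3 overlaps Atg9b on the opposite strand, and the strand setting of the counting is not given in the sources used here. Atg9b, an autophagy gene, stood at 0.243 to 3.48 FPKM, far under Nos3.

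Nos3 relative to the endothelial markers was read as its log2(FPKM + 1) minus the mean of the 12 markers. The value was -0.42, -0.57 and -0.71 in control, -0.56, -0.67 and -0.98 in model, and -0.52, -0.0021 and 0.061 in high dose. All 3 high dose libraries lay above the 3 model libraries, by 0.58 on average (exact two-sided permutation p = 0.1, the smallest that 3 against 3 allows; 0.45 after Benjamini-Hochberg adjustment over the 9 such comparisons). The difference was 0.30 with Pecam1 as the single marker (exact permutation p = 0.2), 0.21 in the 5 libraries with little cardiac RNA and 0.46 to 0.77 without 1 library. Summed endothelial markers stood at 444 FPKM in high dose 2, the lowest of the 9 libraries, and at 577 in high dose 1 and 808 in high dose 3, against 711 to 874 in model. In bulk tissue, fewer cells of a type and less RNA per cell cannot be told apart. The difference between model and control was -0.17 (exact permutation p = 0.5).

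Nos2 was the one member whose model libraries stood apart from both other groups. It lies on chromosome 11 (78920787 to 78960254, plus strand) and overlaps no annotated gene. Nos2 measured 1.33, 1.72 and 3.25 FPKM in control, 5.19, 6.03 and 5.79 in model, and 2.85, 1.43 and 3.16 in high dose. Each model library lay above each control and each high dose library, and the range of high dose fell within that of control. The model mean was 5.67 ± 0.433 FPKM, which is 2.70 times the control mean of 2.10 ± 1.02 and 2.29 times the high dose mean of 2.48 ± 0.923.

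On the log2(FPKM + 1) scale the difference of Nos2 between model and control was 1.15 ± 0.301 (SE; 95% interval 0.47 to 1.84, unadjusted p = 0.00437, limma adjusted p = 0.688). Between high dose and model it was -0.98 ± 0.301 (interval -1.66 to -0.29, unadjusted p = 0.0107, limma adjusted p = 0.283). Both comparisons use the same model libraries. Groups did not overlap in 16.0% of all genes tested in the first comparison (6.91% higher and 9.06% lower in model) and in 22.6% in the second (11.7% higher and 10.9% lower in high dose), so the lack of overlap in 1 and 2 of the 8 tested members is close to the share over all genes. Array weights were an alternative that gives noisier libraries less weight. Control 3, the control library highest in Nos2, had the lowest weight (0.379) and model 2 the highest (5.92). In that fit, which called 684 of 12895 genes (5.30%), Nos2 passed in model against control (log2 difference 1.41, limma adjusted p = 0.0407). In the 5 libraries with little cardiac RNA, which leave 1 control and 1 high dose library, its differences were 0.65 and -0.79. Nos2 in high dose against control gave 0.18 ± 0.301 (interval -0.51 to 0.86, limma adjusted p = 0.946).

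Macrophage markers were also high in the model libraries. Summed over 12 markers, macrophage RNA stood at 249 to 782 FPKM in control, at 6131, 3877 and 1503 in model 1, 2 and 3, and at 601, 946 and 3104 in high dose. None of the markers was at 0 in any library (0 of 12). Adgre1, which encodes the macrophage surface protein F4/80, stood at 1.74 to 1.90 FPKM in control, 7.80 to 27.8 in model and 1.85 to 6.96 in high dose. It was the only marker of these 12 without overlap between high dose and model, where 22.6% of all genes tested did not overlap. Cd68, Csf1r, C1qa, C1qb, C1qc, Fcgr1, Mrc1, Cd14, Lyz2, Mpeg1 and Itgam overlapped there. Over the 9 libraries, which share depth and tissue content, log2(FPKM + 1) of Nos2 correlated with the mean of the macrophage markers at r = 0.616, with that of the red cell markers at r = 0.617 and with that of the cardiac markers at r = -0.75, as a description. Nos2 minus the macrophage marker mean was -2.57, -2.67 and -1.17 in control, -4.04, -3.30 and -2.53 in model, and -2.01, -3.49 and -4.25 in high dose, with overlap in all 3 comparisons (exact permutation p = 0.3 for model against control and p = 1 for high dose against model). The part of macrophage number in the Nos2 difference was not tested. Red cell markers (6 of 6 in the table, none at 0) separated the groups in the same way as Nos2, at 8840 to 15943 FPKM in control, 21374 to 64113 in model and 2693 to 21259 in high dose, and their part was not tested.

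**Figure D2:**
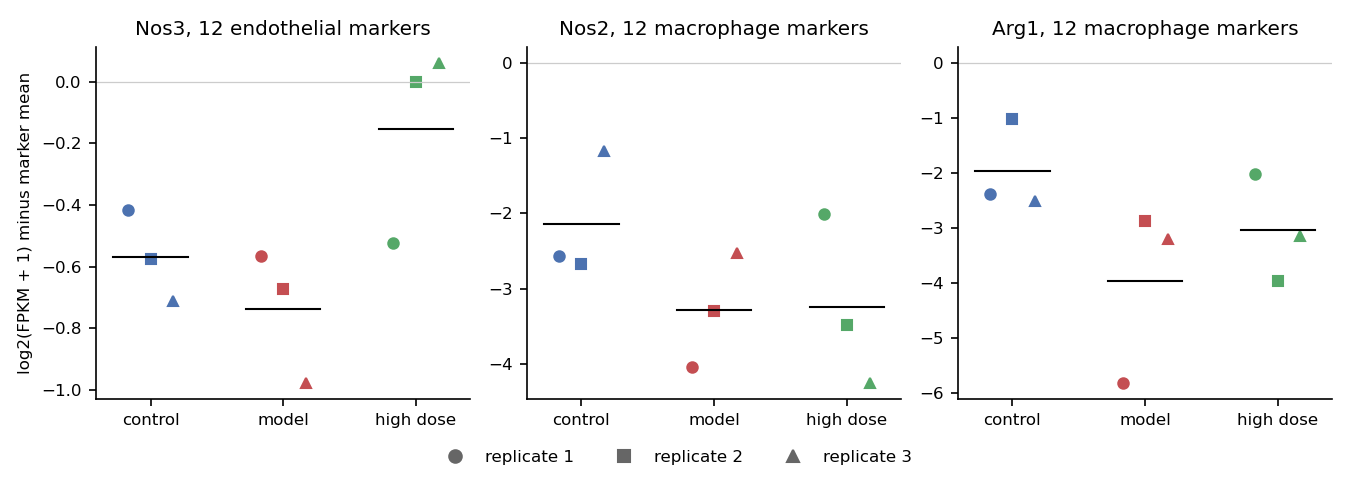
The 3 panels plot log2(FPKM + 1) of Nos3, Nos2 and Arg1 minus the mean of the named marker list, in log2 units, with 1 point per library and a line at the group mean. For Nos3 the high dose points lie at -0.52 or above and the model points at -0.56 or below, whereas the groups overlap for Nos2.

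By correlation of log2(FPKM + 1) over the 9 libraries, the tested genes most like Nos2 were Gpx1, the cytosolic glutathione peroxidase (r = 0.975), Npc2, a lysosomal cholesterol carrier (r = 0.960), and Fam64a, a gene of dividing cells (r = 0.950). Gpx1 stood at 275 to 544 FPKM in control, 784 to 902 in model and 336 to 590 in high dose, the same order of groups. The tested genes most like Nos3 were Zfp566, a zinc finger gene (r = 0.962), Phf20l1 (r = 0.936) and Cenpa, a centromere histone (r = 0.928). None of the 12 endothelial markers was among them. These values are descriptions over 9 libraries that share depth and tissue content.

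Nos1 was near the floor except in 1 library. It lies on chromosome 5 (117781032 to 117958840, plus strand). Control libraries read 0.164, 0.260 and 0.231 FPKM, model libraries 0.0604, 0.208 and 0.413, and high dose libraries 0.296, 3.10 and 0.0307. High dose 2 alone passed 1 FPKM, so Nos1 was not tested and the high dose mean of 1.14 ± 1.70 FPKM rests on that library. The same library held 10313 FPKM summed over 9 fast skeletal muscle markers, against 16.7 to 431 in the other 8. The genes most like Nos1 were Neb, the giant filament protein of skeletal muscle (r = 0.968), Stac3, a part of excitation and contraction coupling in skeletal muscle (r = 0.958), and Adcy2, an adenylate cyclase (r = 0.954). Neb stood at 18.5 FPKM in high dose 2 and at 0.140 to 1.54 elsewhere. High dose 2 was also the highest library in airway markers, and its neuronal and chromaffin markers were below those of control 2 and high dose 1. The part of each tissue in the Nos1 level was not tested.

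As a share of the summed FPKM of the 3 synthases, Nos3 took 76.5% to 94.2% in the 9 libraries. Nos2 took 19.0%, 20.3% and 21.9% in the model libraries, 5.15%, 6.31% and 14.5% in control and 14.2%, 6.02% and 8.39% in high dose. The model shares did not overlap with those of either other group. Nos1 took 13.1% in high dose 2 and at most 1.56% elsewhere.

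Gch1, the rate-limiting enzyme of tetrahydrobiopterin synthesis, varied more between libraries of a group than between groups. It lies on chromosome 14 (47153895 to 47189413, minus strand). Gch1 measured 2.36, 13.3 and 5.68 FPKM in control, 6.58, 6.21 and 3.69 in model, and 45.6, 3.72 and 4.80 in high dose. High dose 1 held more than 3 times as much as any other library, and the groups overlapped. The log2 difference was -0.11 ± 0.853 (SE) between model and control and 0.77 ± 0.853 between high dose and model (limma adjusted p = 0.992 and 0.695). Without high dose 1 the second was -0.28, and the first was 0.42 without control 2 and 0.11 without model 3. In the 5 libraries with little cardiac RNA, the second was 2.88 (limma adjusted p = 0.0378). That fit called 590 of 12892 genes (4.58%), and in it high dose 1 is the one high dose library, assumed to vary like the model libraries. Tetrahydrobiopterin is also the cofactor of Th, the tyrosine hydroxylase of catecholamine-making cells. Th stood at 599.8 FPKM in high dose 1 and 128 in control 2, the libraries highest in Gch1, at 32.6 in control 3, 15.4 in high dose 2, 5.17 in control 1 and 1.15 in high dose 3, and at 0 to 0.644 in model. The list of 11 neuronal and chromaffin markers summed to 3674 FPKM in high dose 1 and 1038 in control 2, to 199 and 242 in control 1 and 3, to 16.1 to 46.5 in model, and to 446 and 38.1 in high dose 2 and 3. Control 2 and high dose 1 also held the most RNA of 8 T cell markers, at 151 and 92.8 FPKM against 12.1 to 81.2 elsewhere. The part of these cells in the Gch1 level was not tested.

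The 250 bases before the annotated starts of Gch1 and Th are shown because both genes were highest in the same pair of libraries. Both come from RefSeq on GRCm38.p6, written 5′ to 3′ in the direction of the gene: Gch1 at chr14:47189414-47189663 and Th at chr7:142899996-142900245, both on the minus strand. Capitals mark the cyclic AMP response element TGACGTCA, its core TGACG, the CCAAT box CCAAT, the GC box GGGCGG, the E-box CACGTG and the TATA motif TATAAA, each searched on both strands, the core being part of the whole element.
Gch1: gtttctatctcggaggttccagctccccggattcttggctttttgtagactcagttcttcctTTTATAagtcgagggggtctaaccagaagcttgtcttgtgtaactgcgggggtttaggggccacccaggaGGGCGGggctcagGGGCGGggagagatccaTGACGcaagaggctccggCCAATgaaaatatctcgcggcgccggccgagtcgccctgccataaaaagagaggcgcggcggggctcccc
Th: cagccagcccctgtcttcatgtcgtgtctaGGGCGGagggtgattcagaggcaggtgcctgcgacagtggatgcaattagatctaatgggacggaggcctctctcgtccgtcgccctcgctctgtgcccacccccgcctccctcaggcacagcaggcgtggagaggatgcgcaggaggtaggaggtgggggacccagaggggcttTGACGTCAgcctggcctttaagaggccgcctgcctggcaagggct
The Th window holds the whole element, which 1.55% of 32851 RefSeq windows of the same length hold, 45 to 38 bases before its start. The Gch1 window holds only the core (17.8% of windows), 88 to 84 bases before its start, followed by a CCAAT box (33.8%) 70 to 66 bases before it and preceded by a pair of GC boxes (32.7%). A TATA motif on the opposite strand (12.4% of windows) lies 188 to 183 bases before the start of Gch1. Other genes, Ddah1 and the chromaffin marker Dbh among them, were highest in the same pair of libraries. The Ddah1 window holds none of these motifs. That of Dbh holds a core and a CCAAT box but not the whole element. A match describes letters only. RefSeq promoters were matched for 5 of the 10 members (Nos1, Gch1, Ddah1, Ddah2 and Ass1).

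The other enzymes of tetrahydrobiopterin synthesis and recycling came from a list of related genes. Pcbd1, which regenerates the oxidised cofactor, measured 8.78, 28.7 and 5.24 FPKM in control, 1.15, 0.641 and 1.30 in model, and 72.9, 18.2 and 3.11 in high dose. Each model library lay below every other library, at a log2 difference of -2.60 ± 0.954 from control and 3.16 ± 0.954 between high dose and model (SE; limma adjusted p = 0.713 and 0.277). High dose 1 and control 2 were again the highest. Qdpr, which reduces the spent cofactor, stood at 139 FPKM in high dose 1 and 39.1 to 92.2 elsewhere, with overlap in every comparison. Pts and Spr, the enzymes after Gch1, and Gchfr, its feedback regulator, also overlapped between groups in all 3 comparisons.

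**Figure D3:**
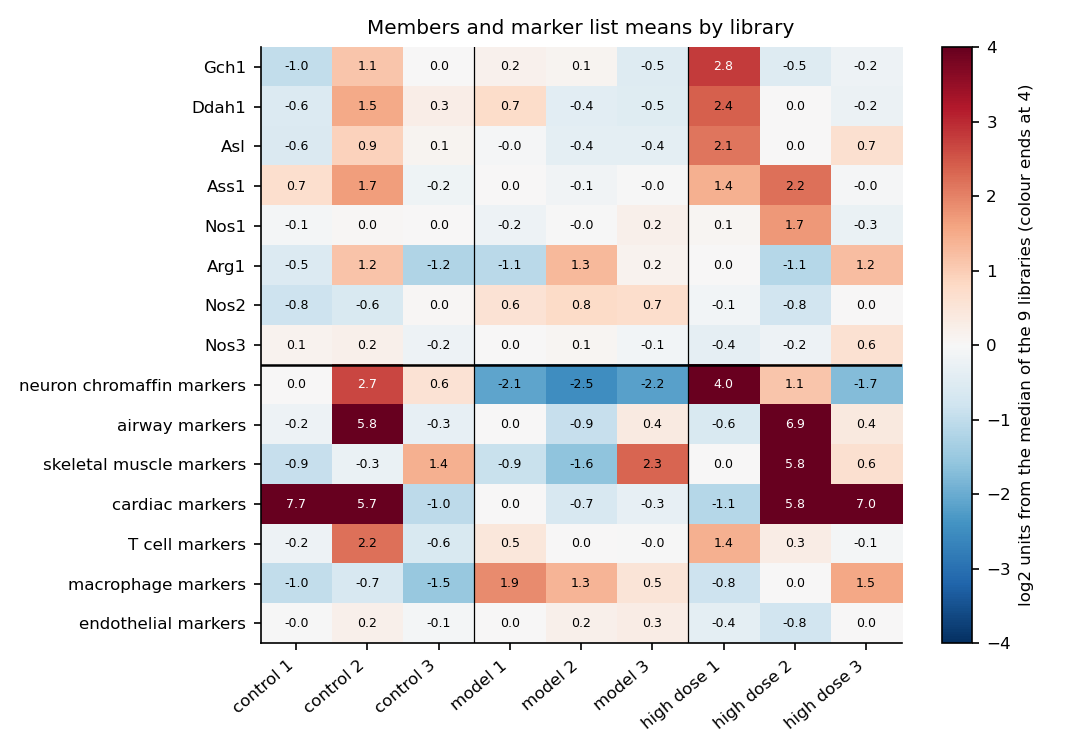
The heat map gives, for 8 members (above the line) and 7 marker list means (below it), the log2(FPKM + 1) value of each library minus the median of the 9 libraries, with the colour ending at 4 log2 units. Gch1, Ddah1 and Asl have their highest value in high dose 1, as do the neuronal and chromaffin markers, and Ass1 and Nos1 in high dose 2, as do the airway and skeletal muscle markers.

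Arginase transcripts were low and uneven. Arg1, the cytosolic arginase of liver and of alternatively activated mouse macrophages (chromosome 10, 24915221 to 24927484, minus strand), measured 1.64, 7.51 and 0.677 FPKM in control, 0.801, 8.49 and 3.25 in model, and 2.82, 0.747 and 7.93 in high dose. Every group held 1 library above 7 FPKM and 1 below 1, and all comparisons overlapped. The log2 differences were 0.31 ± 0.830 for model against control and -0.094 ± 0.830 for high dose against model (SE; limma adjusted p = 0.970 and 0.968). Without control 3 the first was -0.19 and without model 2 it was -0.28, and without model 2 the second was 0.50. Relative to the macrophage markers, Arg1 stood at -2.39, -1.03 and -2.51 in control, -5.82, -2.87 and -3.20 in model, and -2.02, -3.96 and -3.15 in high dose. The model libraries lay below the control libraries by 1.99 on average (exact two-sided permutation p = 0.1, the smallest possible; 0.45 adjusted over the 9 comparisons). That difference was -1.06 without model 1. Arg1 itself was not lower in model, with a log2 difference of 0.31. The subtracted mean of the macrophage markers was 3.72 ± 0.434 in control and 6.02 ± 0.696 in model (SD, n = 3). The part of macrophage number in the relative value was not tested.

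The tested genes most like Arg1 were Herc4 (r = 0.965), a ubiquitin ligase, Uba7 (r = 0.927), which activates the ubiquitin-like protein ISG15, and Zfp639 (r = 0.926), a zinc finger gene. Herc4 stood at 8.53 to 16.6 FPKM over the 9 libraries, a narrower range than that of Arg1. Of 7 markers of alternative activation, 4 (Mrc1, Cd163, Il4ra and Cebpb) overlapped between high dose and model, as Arg1 did. The other 3 did not (42.9%, against 22.6% of all genes tested). Mrc1, the mannose receptor and one of the macrophage markers, measured 8.02, 11.8 and 5.51 FPKM in control, 22.3, 13.6 and 15.0 in model and 5.80, 8.02 and 33.1 in high dose, with model above control (log2 difference 0.95 ± 0.563, limma adjusted p = 0.781). Stat6, the factor that carries the interleukin signal to Arg1, was lower in high dose than in model without overlap (-0.36 ± 0.225, limma adjusted p = 0.476). Chil3, a chitinase-like protein, measured 3.80, 11.1 and 2.05 FPKM in control, 10.7, 15.5 and 6.75 in model and 19.8, 25.1 and 44.6 in high dose, and Retnla, a resistin-like protein, at 40.1 to 89.8, 30.6 to 96.9 and 15.4 to 24.5. In both, the high dose group overlapped with neither of the other groups, with Chil3 above and Retnla below. The log2 differences from model were 1.35 ± 0.530 and -1.63 ± 0.449 (SE; limma adjusted p = 0.351 and 0.253). Retnla is also made by fat, and Chil3 by neutrophil precursors. Neutrophil markers (8) summed to 192 to 1068 FPKM in high dose and 1.53 to 102 in the other 6 libraries, and their part was not tested.

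Arg2, the mitochondrial arginase, measured 0.0878, 1.36 and 0 FPKM in control, 1.34, 0.413 and 0.517 in model, and 1.08, 0.925 and 1.38 in high dose. The gene (chromosome 12, 79130777 to 79156301, plus strand) overlaps Vti1b on the opposite strand, which stood at 43.3 to 72.1 FPKM, so with the strand setting unknown a part of these low values may belong to Vti1b. All comparisons overlapped, with log2 differences of 0.32 ± 0.383 for model against control and 0.31 ± 0.383 for high dose against model (SE; limma adjusted p = 0.915 and 0.728). The first was 0.093 without control 3, 0.71 without control 2 and 1.35 with a pseudocount of 0.1, and the second 0.17 without model 2, 0.53 without model 1, 0.099 with quantile normalization and 0.66 with that pseudocount. Arg1 took 37.5% to 100% of the summed FPKM of both arginases. Arg1 was under 1 FPKM in 3 libraries, in which Arg2 took 62.5% (model 1), 55.3% (high dose 2) and 0% (control 3).

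Ddah1 degrades asymmetric dimethylarginine, the methylated arginine that inhibits the synthases (chromosome 3, 145758675 to 145894277, plus strand). Control libraries read 0.818, 6.63 and 2.24 FPKM, model libraries 3.46, 0.981 and 0.926, and high dose libraries 13.0, 1.67 and 1.28. High dose 1 and control 2 were the highest, as for Gch1, and the groups overlapped. The log2 difference was -0.47 ± 0.772 for model against control and 0.78 ± 0.772 for high dose against model (SE; limma adjusted p = 0.942 and 0.659). Without high dose 1 the second was -0.059, and without control 2 the first was 0.084.

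Ddah2, the second enzyme of this kind, was listed at 0.185, 0.167 and 0.0509 FPKM in control, 0.141, 0.0388 and 2.80 in model, and 0, 0.183 and 0.178 in high dose. Model 3 alone passed 1 FPKM, and Ddah2 was not tested. The gene lies on chromosome 17 (35059035 to 35062095, plus strand), in the class III region of the major histocompatibility complex. Of the 21 other protein-coding genes of the table that start within 100 kb of it, 21 had a median under 1 FPKM (100%), against 42.9% of 20226 genes with an annotated position. The neighbours include Lsm2, a splicing protein, Bag6, a chaperone, Vars, the valine transfer RNA ligase, and Csnk2b, a kinase subunit, which most cells use. Their medians were 0.0149, 0.314, 0.335 and 0.256 FPKM. Csnk2b reached 7.62 FPKM in model 3, the library that was also highest in Ddah2, and stood at 0.127 to 0.386 elsewhere. The listed values of Ddah2 were therefore not read as its level in the arch. The window of 100 kb was chosen after these values were seen.

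**Figure D4:**
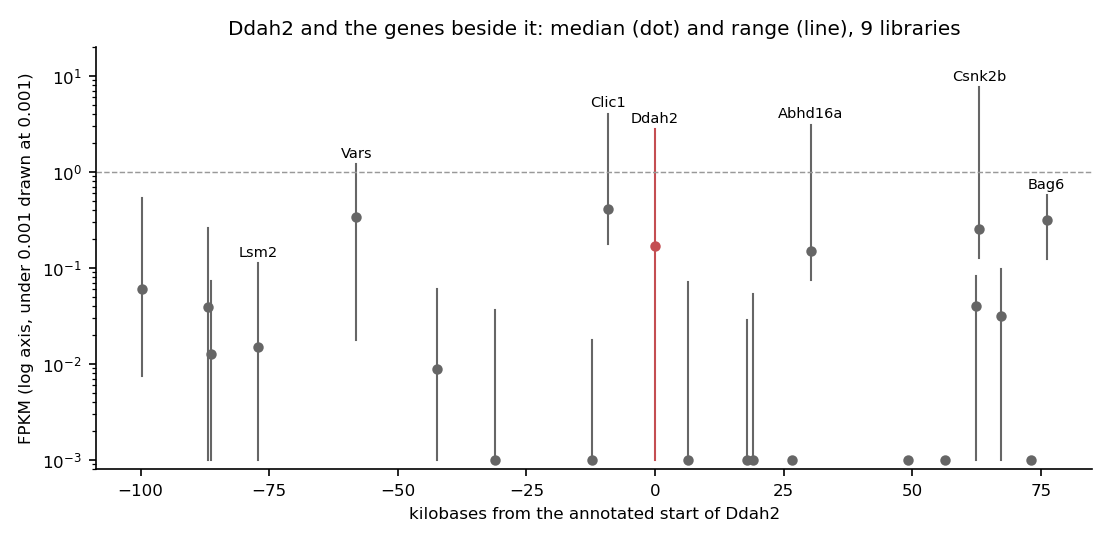
Each dot is the median FPKM of 1 gene over the 9 libraries and each line its range, on a log axis, against the distance in kilobases between its start and that of Ddah2. All 22 medians lie under the dashed line at 1 FPKM, and the ranges of Ddah2, Vars, Clic1, Abhd16a and Csnk2b cross it.

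Ass1, argininosuccinate synthase, was steady in model and uneven in the other groups. It lies on chromosome 2 (31470207 to 31520672, plus strand). Control libraries read 14.8, 31.1 and 7.83 FPKM, model libraries 9.03, 8.04 and 8.90, and high dose libraries 26.0, 44.9 and 8.71. The model libraries spanned 8.04 to 9.03 FPKM while the other groups each ranged from under 9 to over 30, so the groups overlapped. The log2 difference was -0.77 ± 0.598 for model against control (limma adjusted p = 0.846) and 1.25 ± 0.598 for high dose against model (interval -0.11 to 2.61, limma adjusted p = 0.390). Without high dose 2 the second was 0.75, and without control 2 the first was -0.29. In the 5 libraries with little cardiac RNA the second was 1.48 (limma adjusted p = 0.0377, with 4.58% of all genes called and high dose 1 alone in its group) and the first 0.13. High dose 2 and control 2, the highest libraries in Ass1, were the highest in airway markers, and high dose 1, the next in Ass1, in neuronal and chromaffin markers. The part of these tissues in the Ass1 level was not tested.

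Asl, argininosuccinate lyase, cleaves the product of Ass1 into arginine and fumarate (chromosome 5, 130011258 to 130029247, minus strand). Control libraries read 5.89, 18.5 and 10.01 FPKM, model libraries 8.93, 6.82 and 6.85, and high dose libraries 44.6, 9.28 and 15.2. Each high dose library lay above each model library, by a small margin for high dose 2 over model 1, while control overlapped with both. The log2 difference was 1.21 ± 0.551 for high dose against model (SE; interval -0.040 to 2.47, unadjusted p = 0.0562, limma adjusted p = 0.377) and -0.43 ± 0.551 for model against control (limma adjusted p = 0.923). High dose 1 again stood highest, and without it the first was 0.61. In the 5 libraries with little cardiac RNA, it was 2.43 (limma adjusted p = 0.0211, again with 4.58% of all genes called and high dose 1 alone in its group), and without control 2 the second was -0.039. Asl, Ddah1 and Gch1 shared their pair of highest libraries, high dose 1 and control 2.

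High dose against control is made from the same libraries as the other comparisons. Of the 8 tested members, 0 had groups without overlap in it, against 8.68% of all genes tested (3.66% higher and 5.02% lower in high dose). The log2 differences lay between -0.015 for Nos3 and 0.79 for Asl, with limma adjusted p = 0.888 or above. Arg2 had 0.63 ± 0.383 and Gch1 0.66 ± 0.853 (SE). The difference of Asl was 0.18 without high dose 1, 0.42 without control 1, 1.25 without high dose 2 and 2.05 in the 5 libraries with little cardiac RNA. That of Arg2 was 0.40 without control 3, 1.02 without control 2 and 2.01 with a pseudocount of 0.1.

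**Figure D5:**
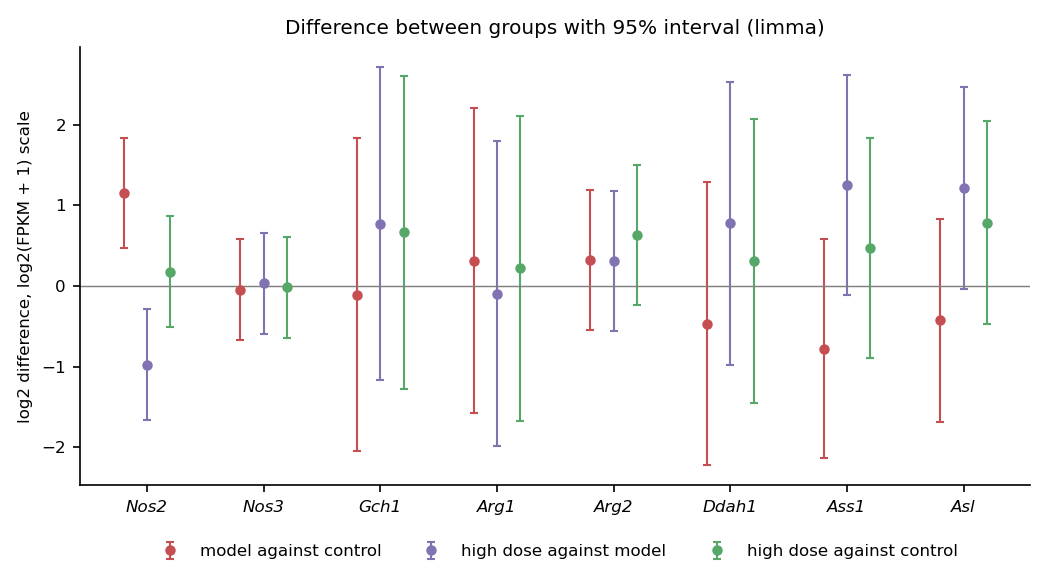
Points are the log2 differences of the 8 tested members on the log2(FPKM + 1) scale in the 3 comparisons, and bars their 95% intervals from the limma fit. The intervals of Nos2 leave out 0 in model against control and in high dose against model, and all others contain 0.

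Related genes of the pathway were taken from a list of 102 symbols, in which 4 are other names of listed genes, so that 98 were in the table and 85 were tested. In model against control 0 passed, 42 had a difference above 0 and 43 below, and the median log2 difference was -0.026, where that of all genes tested was -0.010. Groups did not overlap in 14.1% of the 85 (6 higher, 6 lower) against 16.0% of all genes. For high dose against model, 0 passed, 44 were above 0 and 41 below, the median was 0.041 against 0.00080 over all genes, and groups did not overlap in 27.1% (13 higher, 10 lower) against 22.6%. For high dose against control, 0 passed, the median was 0.0035 against 0.0022, and 7.06% did not overlap.

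Arginine crosses the cell membrane through carriers of the Slc7 family, and the direction of transport was not measured. Slc7a6, a light chain of an exchanger for arginine, measured 6.09, 11.4 and 10.6 FPKM in control, 16.5, 16.6 and 18.9 in model, and 16.5, 20.0 and 16.7 in high dose. Each ApoE-/- library lay above each control library, by a log2 difference of 0.86 ± 0.242 for model and 0.89 ± 0.242 for high dose (SE; limma adjusted p = 0.688 and 0.805). Slc7a1 and Slc7a2, the cationic amino acid transporters, stood at 1.50 to 9.54 and 2.20 to 9.18 FPKM with overlap between model and control.

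Among the genes that act on Nos2 or respond with it in macrophages, 10 of 11 were tested and all 10 had a log2 difference above 0 between model and control (median 0.41), where 48.7% of all genes tested were above 0. Groups did not overlap in 3 of them, all higher in model, against 6.91% of all genes. Macrophages express these genes, and the macrophage markers summed to 249 to 782 FPKM in control and 1503 to 6131 in model; their part was not tested. Il1b, a cytokine, measured 1.65, 0.794 and 0.407 FPKM in control and 3.11, 2.30 and 2.97 in model (log2 difference 1.00 ± 0.430), and Tlr2, a receptor for bacterial lipoproteins, at 2.45, 2.74 and 1.15 and 8.60, 5.17 and 4.36 (1.17 ± 0.502). Tlr4, the endotoxin receptor, stood at 2.93 to 4.84 and 5.16 to 9.83 FPKM (0.58 ± 0.398). Their limma adjusted p ran from 0.758 to 0.818. Tnf was listed at 0 to 0.0204 FPKM in the 9 libraries and was not tested, and this value was not read as its absence from the arch. Between high dose and model, 9 of the 10 were below 0, with a median of -0.23, where 50.1% of all genes were above 0.

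The transcription factors Klf2 and Klf4, which raise Nos3 expression in cultured endothelium, had lower values in high dose than in model. Klf4 measured 48.3, 49.4 and 49.3 FPKM in control, 71.7, 120 and 93.9 in model, and 13.8, 20.9 and 28.4 in high dose. The 3 groups did not overlap at any point, and the log2 difference was 0.91 ± 0.292 for model against control and -2.15 ± 0.292 for high dose against model (SE; limma adjusted p = 0.708 and 0.131). Klf2 measured 82.0, 175 and 75.9 FPKM in control, 129, 193 and 133 in model, and 32.0, 85.4 and 87.3 in high dose (log2 difference -1.25 ± 0.464 for high dose against model, limma adjusted p = 0.342). Nos3 did not share this order of groups. Cav1, the caveolar protein that binds and inhibits Nos3, stood at 361, 530 and 471 FPKM in model and 211, 142 and 255 in high dose, without overlap (log2 difference -1.18 ± 0.343, limma adjusted p = 0.265). The mean log2(FPKM + 1) of the 12 endothelial markers was also lower in high dose, at 4.70 ± 0.377 against 5.25 ± 0.149 in model (SD, n = 3). Kdr, an endothelial growth factor receptor and one of these markers, had a difference of -1.34 ± 0.564 (SE; limma adjusted p = 0.366) with overlap. The markers did not all move alike. Cdh5 was lower in high dose without overlap, at 32.4 to 86.2 FPKM against 91.6 to 137 in model. So was Cldn5, at 0.238 to 0.779 against 1.17 to 1.39. Erg, Egfl7 and Esam overlapped between the 2 groups. Tek had a difference of -0.50 ± 0.372 (SE) with overlap. Emcn stood at 64.2 to 70.5 FPKM in model and at 58.7, 41.0 and 179 in high dose 1, 2 and 3. The part of endothelial content and of other cell types in these values was not tested.

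Downstream of nitric oxide, the soluble guanylate cyclase subunits Gucy1a3 and Gucy1b3 stood at 14.4 to 43.3 and 11.5 to 31.8 FPKM with overlap in all comparisons. Prkg1, the cyclic GMP-dependent kinase of smooth muscle, stood at 2.61 to 3.19 FPKM in control, 2.41 to 3.71 in model and 1.40 to 1.78 in high dose. High dose lay below both other groups, at -0.58 ± 0.216 from model and -0.61 ± 0.216 from control (SE; limma adjusted p = 0.343 and 0.832). Mrvi1, the substrate of that kinase on the calcium store, stood at 3.59 to 10.3 FPKM in high dose and 11.0 to 23.8 in model (-1.05 ± 0.429, limma adjusted p = 0.358). Smooth muscle markers summed to 488, 4213 and 1557 FPKM in high dose and 1835 to 4483 in model, and their part was not tested.

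Beyond arginase, ornithine feeds polyamine synthesis. Odc1, the rate-limiting decarboxylase, measured 29.7, 45.3 and 53.5 FPKM in control and 27.3, 29.2 and 28.9 in model, without overlap (log2 difference -0.53 ± 0.306), and Oaz2, an antizyme that directs it to breakdown, at 101, 110 and 109.7 and 66.5, 71.1 and 60.2 (-0.69 ± 0.306, SE). Their limma adjusted p values were 0.774 and 0.761. Sms, spermine synthase, stood at 6.28, 5.63 and 3.85 FPKM in model and 26.0, 10.4 and 13.3 in high dose (1.41 ± 0.470, limma adjusted p = 0.305). Prmt1, the main methyltransferase behind asymmetric dimethylarginine, measured 37.3, 46.5 and 30.2 FPKM in control and 25.4, 25.5 and 28.9 in model (-0.48 ± 0.244, limma adjusted p = 0.764). Prmt1 was the 1 gene without overlap in that comparison among the 6 tested genes of arginine methylation (16.7%, against 16.0% of all genes). Between high dose and model, 3 of the 6 did not overlap (50%, against 22.6% of all genes). These were Prmt1, Prmt3 and Carm1, each higher in high dose. None of the 6 passed the test in either direction in any comparison; their median log2 difference was -0.35 between model and control and 0.39 between high dose and model, against -0.010 and 0.00080 over all genes. The urea cycle genes Cps1, Otc and Nags were at 0 to 1.12 FPKM in the 9 libraries and were not tested.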

How the data were processed

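The authors deposited 1 table of FPKM values for 9 libraries, with 21989 rows and 21987 distinct gene names. It was made on the builds GRCm38.p5 and mm10 per the submitters' processing notes. Which aligner, counter and strand setting were used is not given in the sources used here. Since FPKM is scaled to a library total, a few very abundant genes lower the rest. Columns were matched to sample titles by name (AS to model, HD to high dose, Contorl to control), and all libraries carry batch label 1.

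The deposited values were taken as log2(FPKM + 1) and compared two-sided with limma 3.58.1 (R 4.3.3), fitting the 3 group means to all 9 libraries at once with trended empirical Bayes variances and Benjamini-Hochberg adjustment over the 12895 genes with at least 1 FPKM in at least 3 libraries. Fold changes on this scale understate the change of low genes. Values relative to markers were compared by exact permutation (scipy 1.17.1). The procedure was tested on simulated data. Positions are from GENCODE release M21 on GRCm38, promoters from RefSeq on GRCm38.p6.

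The members and lists were chosen with earlier results of these data known. Named genes were the 10 members, up to 6 related genes per direction and comparison with the smallest p among those without overlap whose higher group averaged 1 FPKM or more, and the 3 genes most like Nos1, Nos2, Nos3 and Arg1. Qdpr, Pts, Spr, Gchfr, the Slc7 carriers, the guanylate cyclase subunits, Tnf, the neighbours of Ddah2 and other genes given as context were chosen outside this rule, after their values were seen.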

Additional observations from a re-analysis of the deposited data

How the results depend on the processing

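The alternatives were quantile normalization, median-ratio rescaling, a pseudocount of 0.1, testing without a filter or only genes averaging 5 FPKM (which leaves no value for Nos2, Arg1, Arg2 and Ddah1), only the 2 groups compared, array weights, a replicate block, the cardiac marker mean as a covariate, only the 5 libraries with Myh6 under 100 FPKM, and each library left out; all were chosen with earlier results of these data known. Of 24 differences (8 members, 3 comparisons), 9 kept their direction in all of them, among them Nos2 in model against control (0.65 to 1.48) and in high dose against model (-1.23 to -0.71). The cause of each change below was not tested. The number of genes called, 0 by limma in each comparison, was 684 for model against control and 6 for high dose against model with array weights, 1 for high dose against model with only those groups, and 590 for high dose against model and 229 for high dose against control in the 5 libraries, where a group of 1 library is assumed to vary like the others. Without 1 library it ran from 0 to 46 in high dose against model, the 46 being without high dose 3, and was 0 in the others. The replicate block gave 0 genes in each comparison. The labels do not say whether replicate numbers pair the libraries. Same-numbered libraries of different groups had deviations that correlated at -0.52 to 0.31, 3 of 9 pairs over 0.1. Of 9 libraries, 1 was closest to its own number. These deviations also carry the uneven tissue content, so they cannot settle whether libraries were paired.

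In model against control, Gch1 was 0.33 with array weights, Nos3 0.24 with the covariate and 0.20 in the 5 libraries, and Ass1 0.13 in the 5 libraries. In high dose against model, Nos3 was -0.026 with quantile normalization, -0.24 with the covariate and -0.35 in the 5 libraries. In high dose against control, Nos3 was 0.044 with array weights and Nos2 -0.14 in the 5 libraries. Leaving out 1 library, Nos3 ran from -0.17 to 0.029, Gch1 from -0.62 to 0.42, Arg1 from -0.28 to 0.99 and Ddah1 from -0.95 to 0.084 in model against control. For high dose against model they ran from -0.27 to 0.22, -0.28 to 1.37, -0.70 to 0.50 and -0.059 to 1.25. For high dose against control they ran from -0.32 to 0.18, -0.39 to 1.26, -0.38 to 0.89 and -0.53 to 0.86, with Nos2 from -0.0062 to 0.43 and Ass1 from -0.029 to 1.09. Relative to macrophage markers, Nos2 in high dose against model (0.040) was -0.15 with a pseudocount of 0.1 and -0.0036 with quantile normalization, and -0.58 to 0.54 without 1 library. Arg1 was -0.0079 to 1.47 there without 1 library, and 0.49 in high dose against control in the 5 libraries. Absolute depth is unknown, and what it limits could not be given gene by gene.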
